A study of Bos taurus with 9 samples.

Results

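In values as deposited, 34 bovine genes had a higher relative transcript level in fertilised 2-cell embryos than in the unfertilised egg. In cloned 2-cell embryos they had at most 0.75 times the fertilised level. They were chosen by their own FPKM values, a relative level that divides sequenced fragments by transcript length and library size. The lowest IVF library had to reach 5 FPKM and 1.5 times the highest MII library, and the highest SCNT library could be at most 0.75 times the lowest IVF library. The gene also had to reach 1 FPKM in at least 1 MII library and in all SCNT libraries, to have an SCNT mean under 3 times the MII mean, and to average under 1000 FPKM. Of 24616 genes in the table, 6000 met the level set for IVF, 1350 also met the remaining IVF, MII and abundance conditions, and 34 met the whole rule. The rise in IVF and the lower level in SCNT are therefore what picked these genes, and they are described here without a test. Under other scalings of the values the rule found 2 to 71 genes.

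The material was Holstein cattle (Bos taurus). MII oocytes are unfertilised eggs arrested in the second meiotic metaphase, the IVF group holds 2-cell embryos made by fertilisation in vitro, and the SCNT group holds 2-cell embryos made by somatic cell nuclear transfer, in which a body cell's nucleus replaces that of the egg. Each group had 3 libraries, from pools of 3 oocytes or of 6 embryos, so stage and pool size changed together between oocytes and embryos. The labels do not name the donor cell of the SCNT embryos, and whether the pools are independent biological samples is not stated.

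An early cattle embryo runs mainly on RNA that the oocyte stored while it grew, and the main wave of transcription from the embryo's own genome comes some divisions later. Before that wave, a transcript can gain abundance through minor early transcription, through lengthening of the poly(A) tail, which can make stored RNA easier to capture, or in relative terms as other stored RNA decays. After nuclear transfer the somatic nucleus has to be reset to an embryonic state by factors of the egg. FPKM values compare a transcript with the rest of its own library and do not measure the amount of RNA per embryo. In pooled embryos, fewer embryos with a transcript and less of it in each cannot be told apart. The deposited identifiers are not paired with gene symbols, so the 34 genes are described by level and pattern, and 4 of them by identifier.

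The 34 genes together took 408, 438 and 417 FPKM in MII replicates 1, 2 and 3. Their summed level was 974, 965 and 1044 FPKM in the IVF replicates. In the SCNT replicates it was 608, 644 and 616 FPKM. The 3 groups formed 3 separate levels, with SCNT between oocytes and IVF embryos. The means were 421 ± 15.5 FPKM in MII, 994 ± 43.1 FPKM in IVF and 622 ± 18.8 FPKM in SCNT (SD, n = 3 each). The summed level was thus 2.36 times the oocyte level in IVF embryos and 1.48 times in SCNT embryos, and SCNT embryos covered 35.1% of the distance from oocyte to IVF embryo. The 5 genes most abundant in IVF made up 50.1% of the summed IVF level. The median gene, which they do not dominate, showed the same order, at 5.75 to 6.72 FPKM in the MII libraries, 15.1 to 17.2 FPKM in the IVF libraries and 8.44 to 10.02 FPKM in the SCNT libraries.

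**Figure D1:**
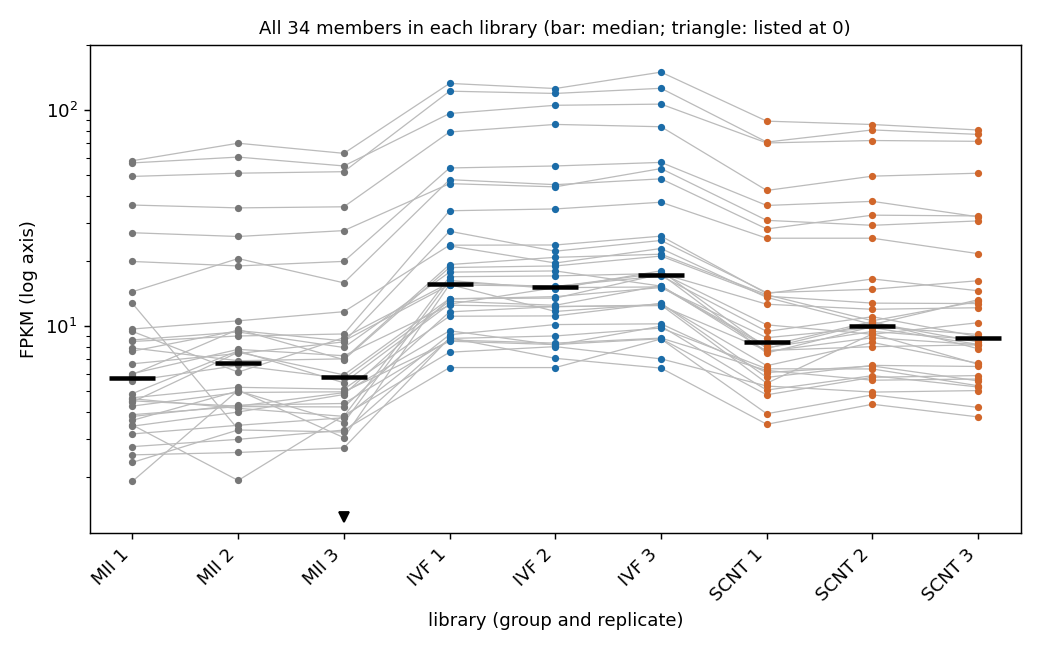
FPKM of the 34 genes (log axis) in each of the 9 libraries, with 1 grey line per gene and black bars at the library median. The median lies at 5.75 to 6.72 FPKM in MII, 15.1 to 17.2 in IVF and 8.44 to 10.02 in SCNT libraries; the triangle marks the 1 gene listed at 0 in MII replicate 3.

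ENSBTAG00000010083 had the largest ratio of the lowest IVF to the highest MII library. It stood at 8.46, 8.97 and 9.16 FPKM in the MII replicates, 34.1, 34.7 and 37.3 FPKM in IVF embryos and 25.4, 25.4 and 21.6 FPKM in the SCNT replicates. No group overlapped another, and SCNT replicates 1 and 2 lay nearer to the IVF mean than to the oocyte mean, while replicate 3 lay nearer to the oocytes. The IVF mean was 3.99 times the MII mean and the SCNT mean 2.72 times, so that SCNT embryos had 57.6% of the IVF rise.

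ENSBTAG00000004203 came next, with 4.59, 4.15 and 3.81 FPKM in the MII replicates, 16.9, 17.0 and 17.5 FPKM in IVF embryos and 12.6, 11.9 and 12.1 FPKM in the SCNT replicates. Replicates lay close together in both kinds of embryo, at 17.1 ± 0.304 FPKM in IVF and 12.2 ± 0.341 FPKM in SCNT (SD, n = 3). Its SCNT level was 62.0% of the way from oocyte to IVF, the highest share among the 34 genes.

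ENSBTAG00000045703 and ENSBTAG00000009889 had the lowest ratios of the highest SCNT to the lowest IVF library, at 0.592 and 0.644. ENSBTAG00000045703 was at 4.64, 5.19 and 5.09 FPKM in the MII replicates, 11.1, 11.1 and 12.7 FPKM in IVF embryos and 5.77, 6.56 and 6.48 FPKM in the SCNT replicates. Its SCNT libraries lay just above the oocytes, at 0.539 times the IVF mean, and reached 19.4% of the rise. ENSBTAG00000009889, the fourth most abundant of the genes in IVF, was at 36.2, 35.1 and 35.5 FPKM in the MII replicates, 78.9, 85.5 and 83.4 FPKM in IVF embryos and 42.3, 49.2 and 50.8 FPKM in the SCNT replicates. Here the SCNT mean was 0.575 times the IVF mean and 1.33 times the MII mean, a share of 25.2%.

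**Figure D2:**
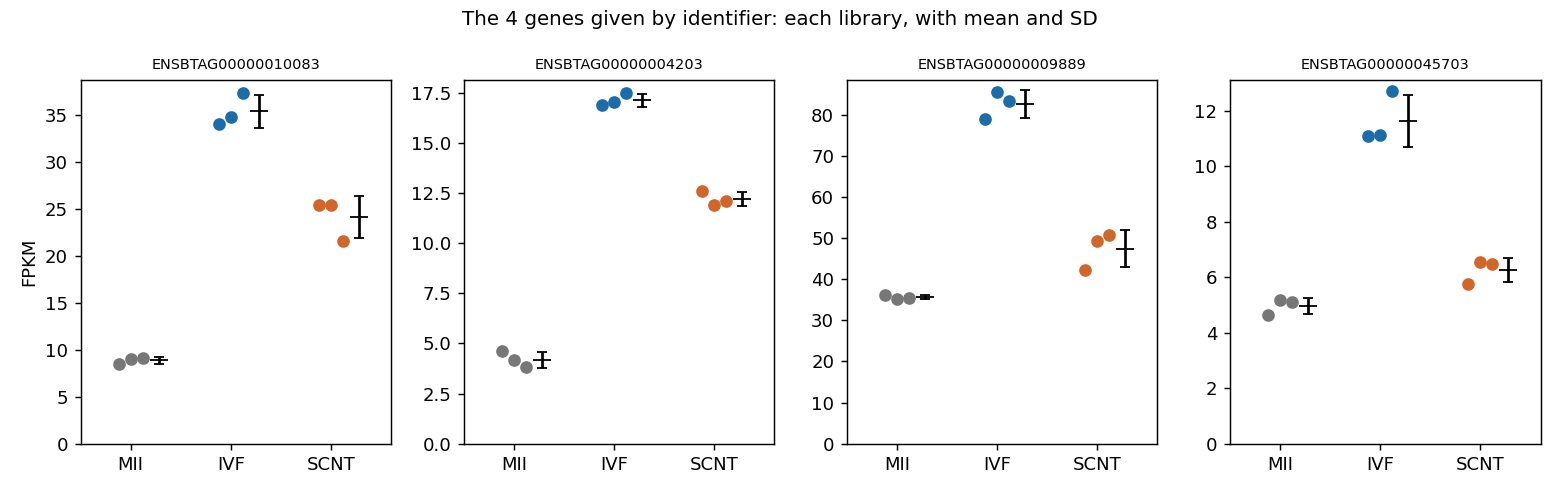
FPKM of 4 genes in each library (points) with the mean and SD of 3 libraries (bars), on linear axes from 0. In all 4 genes the SCNT libraries lie below every IVF library and above every MII library. The share of the IVF rise reached in SCNT is 57.6% and 62.0% in the left pair and 25.2% and 19.4% in the right pair. The pairs were chosen by ratios that bear on this share.

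Most of the genes were of moderate abundance. Their IVF means ran from 7.17 to 136 FPKM with a median of 16.0 FPKM. Of the 34 genes, 8 were under 10 FPKM in IVF, 18 between 10 and 30, 5 between 30 and 100 and 3 above 100 FPKM. The most abundant gene was at 58.0, 70.0 and 62.8 FPKM in the MII replicates, 132, 125 and 149 FPKM in IVF embryos and 88.5, 85.4 and 80.5 FPKM in the SCNT replicates. The groups of this gene did not overlap, and its SCNT mean was 0.625 times the IVF mean, close to the median ratio of the 34 genes. Every gene kept more than 0.5 times its IVF mean in SCNT embryos, and the ratio of SCNT to IVF means ran from 0.518 to 0.713 with a median of 0.615. The rule caps this ratio from above, while it sets no upper limit on the rise. The ratio of IVF to MII means had a median of 2.43 and ran from 1.77 to 4.10, and it was at least 2 in 27 genes and at least 3 in 8. The highest of these ratios belongs to a gene with uneven oocyte values, at 12.7 and 3.32 FPKM in MII replicates 1 and 2 and listed at 0 in MII replicate 3, which may be a failed estimate. This was the only one of the 34 genes listed at 0 in any library.

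The genes differed in how much of the rise was present in SCNT embryos. The share, taken as the SCNT mean's position between the MII mean (0%) and the IVF mean (100%), had a median of 34.3% and ran from 1.07% to 62.0%. It was under 25% in 8 genes, between 25% and 50% in 24 and above 50% in 2, ENSBTAG00000010083 and ENSBTAG00000004203. The rule's limits on SCNT cap the share, and the limit against IVF caps it lower in genes with a smaller rise. Differences in share between genes with large and small rises are therefore partly set by the rule. What remains beyond this cap was not tested. Taken library by library, the median share was 29.7%, 41.6% and 33.5% in SCNT replicates 1, 2 and 3, highest in replicate 2. The lowest share belonged to a gene at 6.01, 7.78 and 7.27 FPKM in the MII replicates, 12.4, 12.3 and 12.5 FPKM in IVF embryos and 5.42, 9.17 and 6.64 FPKM in the SCNT replicates. Its SCNT and oocyte libraries overlapped, while the IVF libraries lay tightly together above both.

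**Figure D3:**
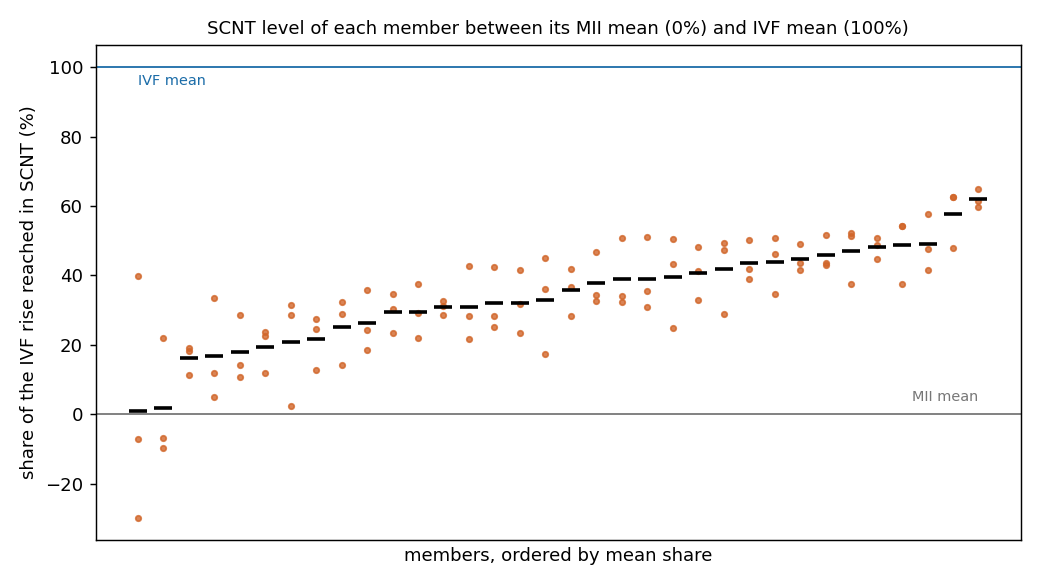
Position of each SCNT library (points) and of the SCNT mean (bars) between the gene's MII mean (0%) and IVF mean (100%), for the 34 genes in order of the mean share. The means climb from 1.07% to 62.0% with a median of 34.3%, and single libraries reach down to -29.7%.

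Set against oocytes, SCNT embryos were higher in mean FPKM for all 34 genes as deposited, but by mean log2 level for 33 as deposited, 32 after rescaling to a common total, 33 after median-ratio scaling and 27 after quantile normalization. In 27 of the 34 genes every SCNT library lay above every MII library, against 37.3% of all 9458 genes tested, and in 7 the groups overlapped. None had all SCNT libraries below all MII libraries, where 21.8% of all genes tested did. These counts lean on the rule, which left out genes with SCNT means at 3 times the MII mean or more and asked for the MII libraries to be low. The 27 genes had a median SCNT level 1.65 times the MII mean and a median share of 39.0%. The 7 overlapping genes had 1.17 times and 20.8%. Their IVF means ran from 8.46 to 21.9 FPKM.

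In a fit across all 9458 genes with limma on log2(FPKM + 1), which gives a log2 change and a Benjamini-Hochberg adjusted p for each gene, all 34 genes were called higher in IVF embryos than in oocytes at an adjusted p under 0.05. Of all genes tested, 44.5% were called higher in that comparison. Between SCNT embryos and oocytes, 25 of the 34 genes were called higher, beside 33.8% of all genes. Without SCNT replicate 2 or SCNT replicate 3 the number was 16, beside 2547 of 9322 and 2701 of 9365 genes. Between SCNT and IVF embryos, 2 of the 34 genes were called lower, ENSBTAG00000009889 and the second most abundant gene, beside 0.0634% of all genes tested. At an unadjusted p under 0.05 these were 33 of the 34 genes and 26.7% of all genes. The rule used all 3 contrasts, so nothing is read from these counts. The count for SCNT against IVF also moved with the libraries in the fit. It was 34 when only the SCNT and IVF libraries were fitted, where 1194 of all 9278 genes tested were called lower. When MII replicate 2 was left out it was 33, beside 1446 of 9387 genes. Without SCNT replicate 1 it was 1, beside 5 of 9403 genes. Leaving out MII replicate 1, any 1 of the IVF replicates, SCNT replicate 2 or SCNT replicate 3 gave 0. In these fits 0 to 6 of all genes tested were called lower.

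On that log2 scale the median change of the 34 genes was 1.19 from oocyte to IVF, -0.66 from IVF to SCNT and 0.50 from oocyte to SCNT. The medians of all genes tested were 0.40, -0.25 and 0.16, so all genes together also stood lower in SCNT than in IVF embryos for FPKM as deposited. The distance between the 34 genes and all genes was 0.79, -0.41 and 0.34. The rule chose the 34 genes by these same values, and the comparisons share libraries and are not independent of each other.

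Library-wide measures moved with the SCNT difference. The FPKM totals were 1197565 to 1206014 in IVF libraries and 1276123 to 1294594 in SCNT libraries, and the median-ratio size factors, which compare the middle of the libraries' distributions, were 1.101 to 1.17 in IVF and 0.914 to 0.974 in SCNT. The totals and the size factors differ in opposite directions. Rescaling to a common total gave a median ratio of SCNT to IVF means of 0.575 in place of 0.615 and a median share of the rise of 29.4%. After division by the size factors the median ratio was 0.731. The median share was then 48.7% in place of 34.3%. With quantile normalization, which gives all libraries 1 distribution, SCNT and IVF libraries did not overlap in 30 of the 34 genes and the median ratio was 0.749. The rule had required no overlap in all 34 genes as deposited, and no share over all genes is set beside the 30. Nothing is read from that count. The median distance from all genes on the log2 scale was -0.41 after rescaling to a common total, -0.39 after median-ratio scaling and -0.35 after quantile normalization. Rescaling and median-ratio scaling divide each library by a constant, which shifts the 34 genes and all genes nearly alike. The rule also chose the 34 genes by these values, so nothing is read from this distance. The part of these library measures in the difference was not tested. Relative depth, from the steps between low FPKM values, was 95.3% to 100% of the deepest library in the SCNT libraries, 95.9% to 96.6% in the IVF libraries and 80.1% to 98.6% in the MII libraries.

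Among the 1350 genes that met the IVF, MII and abundance conditions, 41 met the limit of 0.75 on SCNT. Of these, 6 were left out for an SCNT mean of at least 3 times the MII mean and 1 for an SCNT library under 1 FPKM. Of the 1350 rising genes, 1017 (75.3%) had a lower mean in SCNT than in IVF. In 430 (31.9%) every SCNT library lay below every IVF library, in 838 (62.1%) the groups overlapped and in 82 (6.07%) every SCNT library lay above. Choosing genes for high IVF libraries by itself favours SCNT below IVF. The median of all genes tested was also lower in SCNT, at -0.25 on the log2 scale. No share over all genes is set beside these counts, so no deficit particular to rising genes is read from them. The other 1316 rising genes had a median SCNT to IVF ratio of 0.871 and a median share of the rise of 80.7%. Their IVF level was at a median of 2.86 times the MII mean, against 2.43 among the 34 genes. This balance turned with the scaling. After median-ratio scaling 101 of 916 rising genes had SCNT below IVF without overlap and 168 had SCNT above, and after quantile normalization these were 62 and 133 of 670.

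Among the rising genes, the ratio of SCNT to IVF means differed between abundance classes for FPKM as deposited. These classes were cut by the IVF mean, which is also the denominator of the ratio, in genes chosen for high IVF libraries. The same classes over all genes were not set beside them, so no dependence on abundance is read from the ratios. The median ratio of SCNT to IVF means was 0.835 for the 284 rising genes of 5 to 10 FPKM in IVF, 0.831 for the 549 of 10 to 30 FPKM, 0.881 for the 345 of 30 to 100 FPKM and 0.995 for the 172 of 100 FPKM or more. The genes of the rule made up 2.82%, 3.28%, 1.45% and 1.74% of these classes. The last of these shares rests on 3 genes. With median-ratio scaling the same classes had median ratios of 0.994, 0.986, 1.05 and 1.18. Median-ratio scaling divides each library by a constant and moves the ratios of all 4 classes by nearly the same factor. Their order could therefore hardly change, and the 2 upper classes moved above 1.

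**Figure D4:**
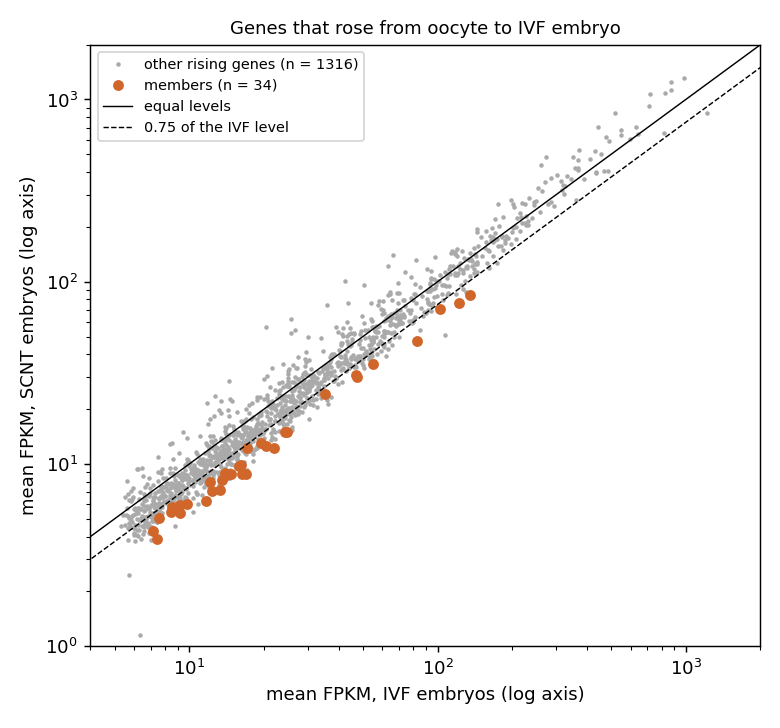
Mean FPKM of the 1350 rising genes in IVF (horizontal) and SCNT embryos (vertical), both on log axes, with the 34 genes in orange. The grey cloud lies mostly under the line of equal levels at low abundance and around it at high abundance; the 34 genes lie in its lower part between 7.17 and 136 FPKM in IVF, with some grey points below them.

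Genes lay closely on both sides of the limit on the SCNT to IVF ratio. For the ratio of the highest SCNT to the lowest IVF library, the genes just inside 0.75 stood at 0.75, 0.749 and 0.748 after rounding, and the nearest of 774 genes kept out by this condition alone stood at 0.75, 0.751 and 0.757. In bins of 0.05 there were 8 genes from 0.65 to 0.7, 24 from 0.7 to 0.75, 36 from 0.75 to 0.8 and 45 from 0.8 to 0.85. For the ratio of the lowest IVF to the highest MII library, the nearest genes inside were at 1.54 and 1.58 and those outside at 1.45 and 1.45. A limit of 0.67 on the SCNT ratio left 2 genes, ENSBTAG00000009889 and ENSBTAG00000045703, and a limit of 0.8 gave 70. The same pair was found with 0.75 after median-ratio scaling. The condition on the SCNT mean kept out 6 genes, the nearest at 3.01 times the MII mean, where the nearest genes inside were at 2.92 and 2.72. The floors lay further from the genes. The lowest IVF library was at 6.37 FPKM in the nearest gene inside and 4.68 FPKM in the nearest of 19 genes kept out by the floor of 5 alone. The lowest SCNT library was at 3.50 FPKM in the nearest gene inside, and the 1 gene kept out by this floor alone was listed at 0. The highest MII library was at 2.72 FPKM or more in all 34 genes, and the floor of 1 there kept out 0 genes alone.

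**Figure D5:**
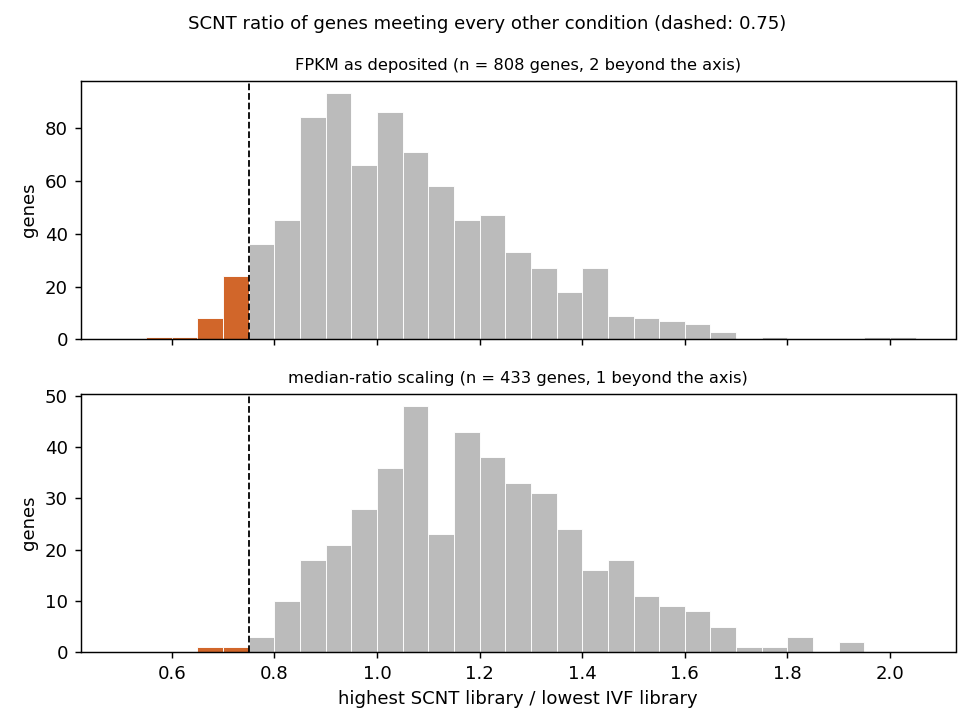
Number of genes meeting every other condition by the ratio of the highest SCNT to the lowest IVF library, in bins of 0.05, for FPKM as deposited (808 genes, top) and after median-ratio scaling (433 genes, bottom). Bars left of the dashed line at 0.75 (orange) are the genes of the rule, 34 at the top and 2 at the bottom, and the bars beside the line at the top hold 24 and 36 genes.

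The rule was also applied without 1 library, and the genes it then found were looked up in that library. The limits of the rule had been set with all 9 libraries known, so these counts describe how it depends on single libraries and support nothing further. Without SCNT replicate 2 it found 112 genes, of which 104 (92.9%) lay below every IVF library in SCNT replicate 2, but only 35 also kept to the limit of 0.75. Without SCNT replicate 1 the numbers were 46 genes, 46 and 37, and without SCNT replicate 3 they were 49, 48 and 34. Among all genes that met the rule's other conditions, the share below every IVF library was 49.2%, 82.2% and 69.4% in SCNT replicates 2, 1 and 3. In SCNT replicate 2 the values of its 112 genes were at a median 1.201 times the mean of the other SCNT libraries.

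The IVF and MII libraries were left out in turn as well. Without IVF replicate 1, 87 genes were found, 77 of them (88.5%) above all SCNT and all MII libraries in IVF replicate 1, and 35 past both limits of the rule. For IVF replicate 2 these were 98, 83 (84.7%) and 35, and for IVF replicate 3 they were 45, 45 and 34. Among all genes that met the rule's other conditions, 31.1%, 29.7% and 38.4% lay above all SCNT and all MII libraries in IVF replicates 1, 2 and 3. Without MII replicate 1, 2 or 3 the rule found 34, 69 and 36 genes, of which 34, 64 and 36 lay below every IVF library in the MII library left out and 34, 37 and 35 kept to the limit of 1.5 times. The shares below every IVF library among all genes meeting the other conditions were 70.8%, 33.02% and 73.7%. IVF replicate 3 was the highest IVF library for 27 of the 34 genes, SCNT replicate 2 the highest SCNT library for 19 and MII replicate 1 the lowest oocyte library for 22. The median of all genes tested deviated in the same direction in each of these libraries, by 0.06, 0.08 and -0.10 on log2(FPKM + 1). The 34 genes deviated by 0.07, 0.08 and -0.11 on log2 FPKM without a pseudocount. The scales differ, so only the directions are set side by side.

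Replicates of the 34 genes lay close together. The median coefficient of variation over 3 libraries was 6.51% in IVF, 8.42% in SCNT and 9.12% in MII. Across the 4745 genes tested with a mean of 5 to 100 FPKM it was 10.8%, 12.8% and 19.5%. The rule reads the lowest and highest library of each group and so prefers genes with a small spread.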

How the data were processed

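RNA of 3 MII oocyte, 3 IVF and 3 SCNT 2-cell pools was sequenced from amplified cDNA, per the labels' protocols. The authors deposited 1 table of FPKM values, the unit being given by the table's name. The submitters' processing notes list RSEM 1.2.12, Bowtie2 2.2.5, StringTie 1.0.4, HISAT 0.1.6, bcl2fastq 2.16 and build UMD3.1. The tool behind the FPKM column is not given there. Only relative depth could be read from the FPKM values, so they carry no counting interval. Amplification from few cells adds noise to low values, and no strand-marking step is described.

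The rule was applied to FPKM as deposited. The 9458 genes that reached 1 FPKM in 3 or more libraries were fitted with limma 3.58.1 in R 4.3.3 on log2(FPKM + 1), with a term per group, all 9 libraries, a mean-variance trend, Benjamini-Hochberg adjustment over all genes and a threshold of 0.05. A pseudocount of 1 understates changes of low genes. On simulated data with 9458 genes, 100 of them changed by 1 and 100 by 2 on the log2 scale, the fit for SCNT minus IVF recovered 71 and 96 and called 10 others. Since the labels do not say that the pools are independent, p-values reflect only how far these libraries scatter, which may be technical. Python 3.11.15, numpy 2.4.6, pandas 2.3.3 and matplotlib 3.10.9 were used for the rest.

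The 34 genes, the rule and the lists were chosen with earlier results of these data known. Identifiers given are the 2 genes with the largest ratio of lowest IVF to highest MII library and the 2 further genes with the lowest ratio of highest SCNT to lowest IVF library. Of 24616 identifiers, 0 matched the reference table (assembly ARS-UCD2.0), so gene lists, markers, positions and sequences were not analysed here. Abundance classes were set with the values in view. The alternatives run were other pseudocounts, filters, scalings, limits of the rule, libraries left out, fits of 2 groups and a replicate block.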

Additional observations from a re-analysis of the deposited data

How the results depend on the processing

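The number of genes found by the rule was 71 after rescaling FPKM to a sum of 1000000, 2 after median-ratio scaling and 2 after quantile normalization. It was 2 and 70 with limits of 0.67 and 0.8 on SCNT, 17 with a rise of at least 2 times, and 34 to 112 with 1 library left out (112 without SCNT replicate 2). All 34 genes were among the 71, and both genes found under each of median-ratio scaling and quantile normalization were among the 34. The number called lower in SCNT than in IVF embryos (2) was 1 and 6 with pseudocounts of 0.1 and 5, 1 for rescaled FPKM, 0 after median-ratio scaling, 3 after quantile normalization, 34 when only these groups were fitted, and 0 to 33 with 1 library left out. With the replicate block it was 0. Of all genes tested, the numbers called lower were, in the same order, 2, 16, 4, 4, 11, 1194, 0 to 1446 and 2. Deviations from the group means correlated at -0.167 to -0.000782 across genes between same-numbered libraries. Between libraries of different number they correlated at -0.0917 to 0.111. With 3 libraries per group these deviations are tied to each other. No same-numbered correlation was positive, and whether the numbers pair the samples was not tested. The number called higher in SCNT embryos than in oocytes (25) was 15 with quantile normalization and 16 to 23 with 1 library left out, and it was 21 with the replicate block. Of all genes tested, 2381, 2547 to 3104 and 3076 were called higher in these fits. The number called higher in IVF embryos than in oocytes was 26 to 34 over 18 alternatives, beside 2112 to 4611 of all genes tested. The median share of the rise was 48.7% with median-ratio scaling and 44.4% on the log2 scale, and 29.4% to 37.9% under the other 10 alternatives run. The median log2 change from oocyte to IVF embryo was 1.29 and 0.84 with pseudocounts of 0.1 and 5, 0.96 after median-ratio scaling and 0.65 after quantile normalization. From IVF to SCNT embryo it was -0.51 with a pseudocount of 5, -0.43 after median-ratio scaling and -0.38 after quantile normalization. From oocyte to SCNT embryo it was 0.36 with a pseudocount of 5 and 0.31 after quantile normalization.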
